A study of Mus musculus with 8 samples.

Results

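In mouse kidney DNA profiled with RRBS (reduced representation bisulfite sequencing, which reads CpG sites near cut sites of the enzyme MspI), 441 CpG positions on chromosomes 1 to 19 were covered by at least 500 reads in each of the 8 libraries. They made up 0.046% of the 959366 positions of these chromosomes with at least 10 reads in all 8 libraries, and are called the very deep positions here. They were chosen by read depth, so their depth and their share of reads are given as a description with no test. Very deep positions under 250 bp apart were joined into 28 runs on 12 chromosomes, numbered along each chromosome. Such pile-ups are commonly read as repeats that the assembly holds in fewer copies than the genome does. That reading was not checked here, since no repeat annotation of the mm9 build was used, and the positions are called by their depth alone.

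The DNA came from kidney cortex and outer medulla of wild type male C57BL/6J mice, whose age is not stated. The UUO+5AZA group (2 libraries) had a unilateral ureter obstruction (UUO), in which the left ureter is tied and cut, for 7 days, and injections of 5AZA, an inhibitor of DNA methylation, at 1 mg/kg per day. The UUO group (2 libraries) had the obstruction for 7 days with no 5AZA named in its labels, and the UUO sham group (1 library) had the surgery without the ligation. The ischemia groups had both renal pedicles clamped for 25 minutes, followed by reperfusion for 1 week (1 library) or 1 month (1 library), and the ischemia sham group (1 library) had the surgery without the clamping. Whether the 2 UUO libraries, or the 2 UUO+5AZA libraries, are from separate mice is not stated. Every p-value here therefore has libraries as its units, and their spread may be technical. In the main model of runs below, that spread comes from the UUO and UUO+5AZA pairs alone and is never taken under counting error. The groups with 1 library add none. The libraries held 56892250 to 84888386 reads summed over the CpG positions of chromosomes 1 to 19, and no library was left out.

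In mammals most CpG sites of repeats carry DNA methylation, which is copied after replication by DNMT1 and limits transcription of the repeat. Ribosomal RNA genes are an exception: they lie in arrays of many near-identical copies, and in mouse some of the copies are unmethylated and transcribed while others are methylated and silent. A repeat whose copies are aligned to 1 place therefore gives a methylation level that averages over its copies. Here the methylation level of a position is the percentage of its reads that were methylated, and that of a run is the same percentage over all reads of the run.

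The very deep positions took 3.31% to 4.26% of all reads. In each library their median depth was 3597 to 7055 reads, 76.5 to 100.6 times the median of 47 to 71 reads at the other 958925 positions. Their share was 3.59% and 3.31% in the UUO+5AZA libraries, 4.06% and 4.10% in the UUO libraries and 3.58% in the UUO sham library. It was 4.26% in the ischemia 1 week library, 4.24% in the ischemia 1 month library and 3.93% in the ischemia sham library. Both UUO libraries thus held a higher share than the UUO+5AZA libraries and the UUO sham library, and the 3 shares of the ischemia set lay closer together. The exact 95% binomial interval of the lowest share ran from 3.30% to 3.31%, and those of the others were as narrow. Such intervals cover counting error only, because PCR reads without molecular identifiers are not independent molecules.

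Of the 28 runs, 3 held 1 position, 17 held 2 to 9 and 8 held 10 or more. The depth of single runs varied more between libraries than the total did: 14 runs differed over 2-fold between their lowest and highest library in RPM (reads of the run per 1000000 reads at CpG positions). The widest spread was seen at chr18 run 1 (mm9 chr18:68851776-68851808, 6 positions, named after its values were seen), with 314 and 853 RPM in the UUO+5AZA libraries, 164 and 633 in the UUO libraries and 868 in the UUO sham library. It had 867 in the ischemia 1 week library, 552 in the ischemia 1 month library and 494 in the ischemia sham library. Over this 5.31-fold range in depth its methylation level stayed between 25.8% and 30.9%. The UUO libraries, with 164 and 633 RPM, had levels of 30.9% and 30.5%. The UUO+5AZA libraries, with 314 and 853 RPM, had 26.9% and 26.5%. That difference of -3.93 points from UUO did not pass the adjusted test described below.

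The 3 very deep positions nearest the depth limit had 500, 501 and 501 reads in their lowest library and mean levels of 18.4%, 12.2% and 8.40%. All 3 lie on chromosome 17 (mm9 chr17:39980409-39980449). The 3 positions just outside it had 471, 468 and 456 reads, at mm9 chr17:36368220-36368221, chr12:20237581-20237582 and chr12:20240015-20240016, with mean levels of 77.5%, 93.6% and 69.6%.

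**Figure D1:**
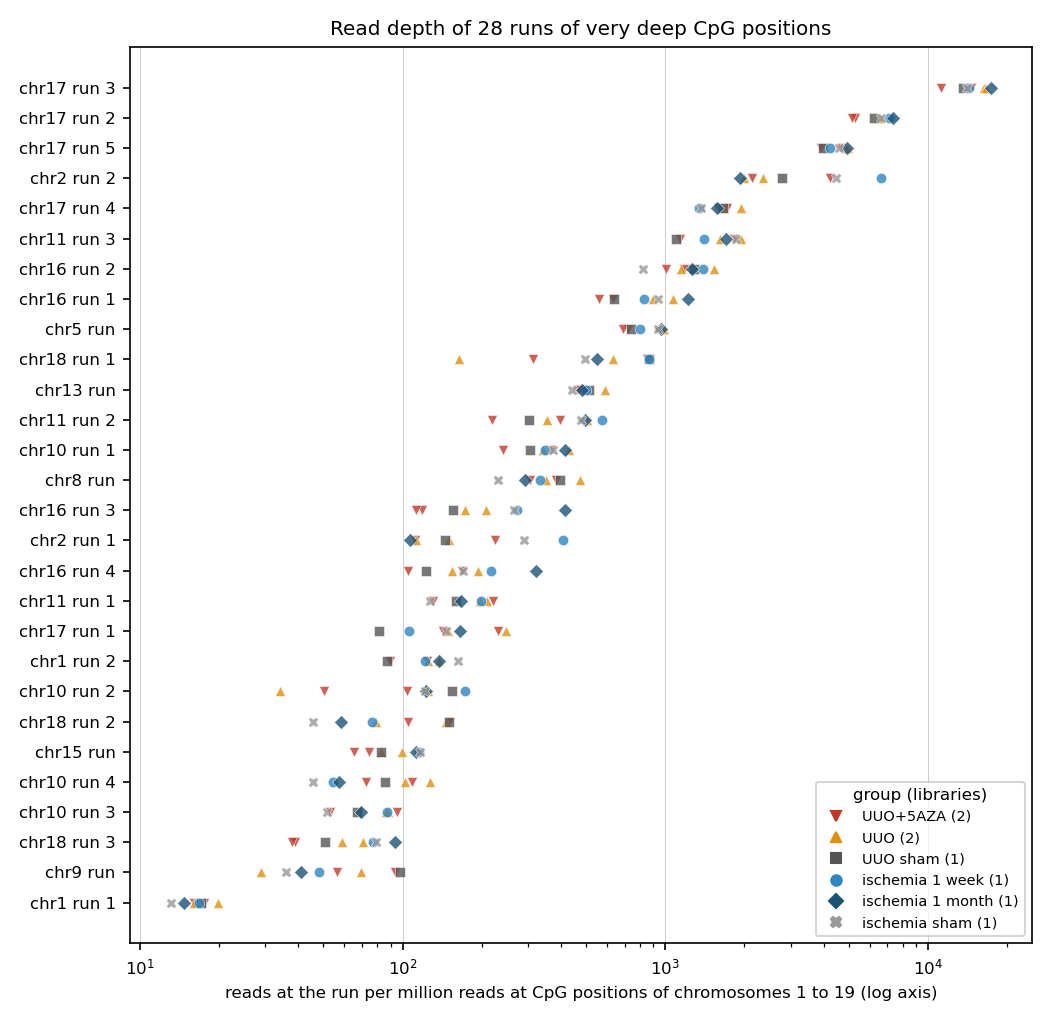
Reads at each of the 28 runs in RPM (log axis), the reads per 1000000 at CpG positions of chromosomes 1 to 19, 1 point per library, runs ordered by reads over all 8 libraries. The chromosome 17 runs 2 to 5 and chr2 run 2 lie at the top, and chr18 run 1 spreads from 164 to 868 RPM.

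Most very deep positions sat in 1 place. Runs 2 to 5 of chromosome 17 are neighbours within 5787 bp (mm9 chr17:39979959-39985745) and together held 301 of the 441 positions and 70.0% of the reads at very deep positions. They are called the 4-run block here. As background, this stretch of mouse chromosome 17 is known for the assembly's copy of the 45S pre-ribosomal RNA (Rn45s), the transcript that is cut into the 18S, 5.8S and 28S ribosomal RNAs. No mm9 annotation was used here to place it. The block took 2.18% to 3.12% of all reads of a library, with 4576 to 8792 reads per position on average. Within its borders a further 62 CpG positions had at least 10 reads in all 8 libraries but under 500 in some, and 209 had under 10 reads in some library.

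The block's positions of high level were all at fragment edges, though most of its edge positions were low. Away from edges the mean level ran from 1.88% to 38.2%. A position is called a fragment edge here by its change in depth to the next covered CpG on either side. The change was taken in each library without its sign and summed over the 8. An edge is a position where this sum was over 10% of its total depth, or where no covered CpG lay within 250 bp on a side. RRBS reads start and stop at MspI cut sites, so such steps were taken as the ends of fragments. Of the 165 block positions not at an edge, 0 had a mean level over 50%, and their median was 18.9% (quartiles 16.7% and 21.6%). Of the 136 edge positions, 51 had a mean level of 50% or more, from 56.3% to 98.3%, while 82 others lay between 11.9% and 33.3%. No block position had a mean level between 38.2% and 56.3%. The labels' protocol filled in the cut ends with methylated dCTP, so a cytosine at a filled end can be read as methylated whatever the DNA carried. Its part in the levels of the 51 high positions was not tested.

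The block also held 12 positions with a mean level under 10%, of which 3 were at an edge. Of these, 7 lay together 2680 to 2719 bp after the block's first very deep position, with mean levels of 3.78% to 8.82%, and 2 lay at 3281 and 3283 bp, with 1.88% and 4.11%. The other 3 lay at 489, 5748 and 5756 bp, with 7.59% to 9.67%. All of these thus had mean levels below the 10.7% at the lowest of the block's remaining positions.

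**Figure D2:**
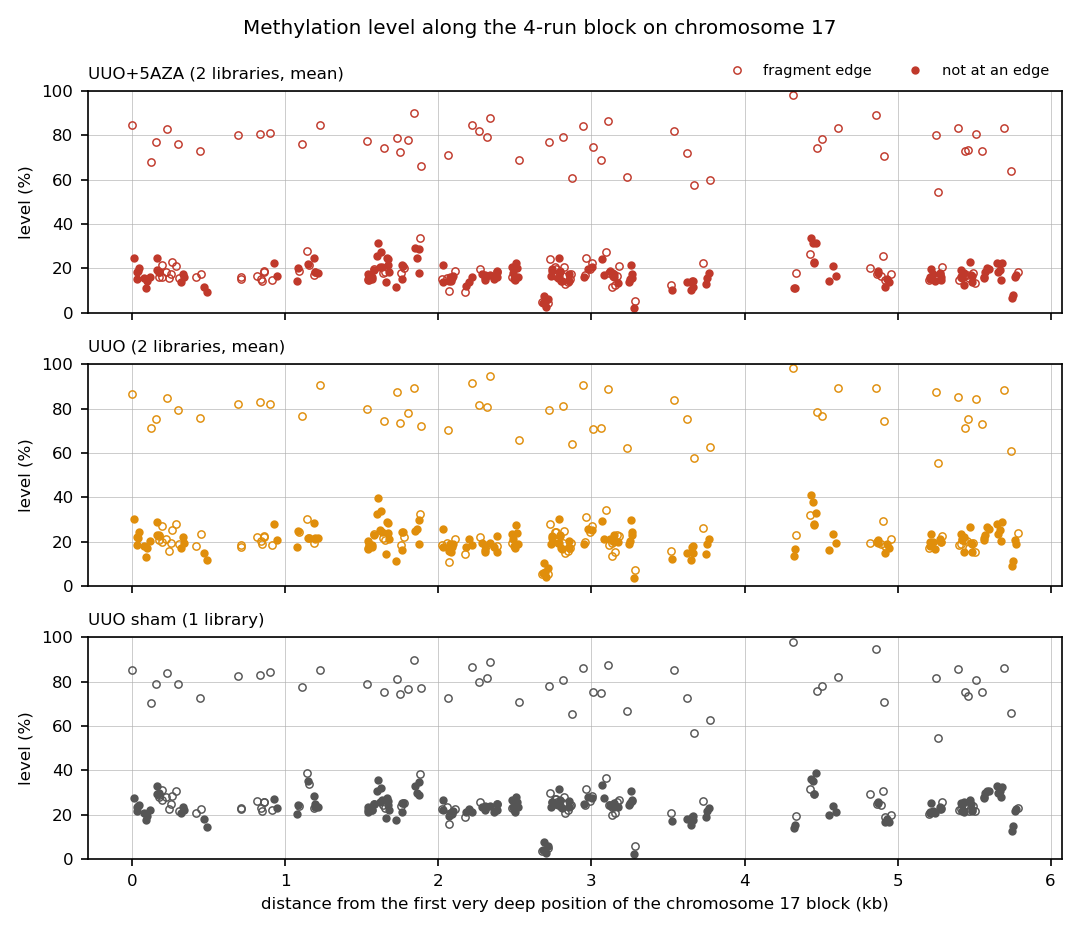
Methylation level (%) of the 301 very deep positions of the 4-run block on chromosome 17 against the distance (kb) from its first very deep position, as the mean of 2 libraries for UUO+5AZA and for UUO and as 1 library for UUO sham. Open points are fragment edges, filled points are not. The filled points form a band with a median near 18.9% over all libraries, with a dip under 10% close to 2.7 kb, and every point above 50% is an open one.

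The other 24 runs held 140 positions and fell into 3 classes by their mean level over the 8 libraries, a split made after the values were seen and used for description. A first class of 12 runs (95 positions, 17.7% of the reads at very deep positions) lay between 15.7% and 39.1%, in the same range as the block's runs, which lay between 27.5% and 36.0%. The level of a run can pool unlike positions. At chr5 run the mean levels of its positions ran from 14.5% to 89.0% (median 17.4%). At chr16 run 3 they ran from 4.34% to 57.2% (median 5.20%), and at chr16 run 4 from 16.5% to 29.7%. The class included chr16 run 2 (chr16:57391705-57391750, 7 positions), with 23.8% and 23.5% in UUO+5AZA, 26.2% and 27.1% in UUO, 26.5% in UUO sham, 24.7% in ischemia 1 week, 26.7% in ischemia 1 month and 23.8% in ischemia sham. It also included chr11 run 3 (chr11:108873012-108873243, 19 positions), the run of this class with the most reads in total. That run had 24.3% and 27.0% in UUO+5AZA, 26.4% and 29.8% in UUO, 33.4% in UUO sham, 28.9% in ischemia 1 week, 28.7% in ischemia 1 month and 26.5% in ischemia sham.

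A second class of 11 runs (43 positions, 12.1% of the reads) lay at 55.1% to 97.1%. Outside the block 45 of the 78 edge positions had a mean level over 50%, against 10 of the 62 not at an edge. The part of the methylated dCTP at filled ends in these levels was not tested. The run of this class with the most reads was chr2 run 2 (chr2:98506419-98506661), with 8.54% of all reads at very deep positions. All 3 of its positions were at an edge. Its level was 95.7% and 95.6% in UUO+5AZA, 97.9% and 98.2% in UUO, 98.3% in UUO sham, 96.4% in ischemia 1 week, 97.0% in ischemia 1 month and 97.5% in ischemia sham. Depth moved far more than level there: it took 2140 and 4221 RPM in UUO+5AZA, 2351 and 1992 in UUO, 2778 in UUO sham, 6595 in ischemia 1 week, 1916 in ischemia 1 month and 4469 in ischemia sham. A single run, chr9 run (chr9:3260368-3260399, 2 positions), was nearly unmethylated, at 3.92% and 4.83% in UUO+5AZA, 6.03% and 5.97% in UUO, 3.11% in UUO sham, 4.17% in ischemia 1 week, 4.72% in ischemia 1 month and 3.58% in ischemia sham.

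**Figure D3:**
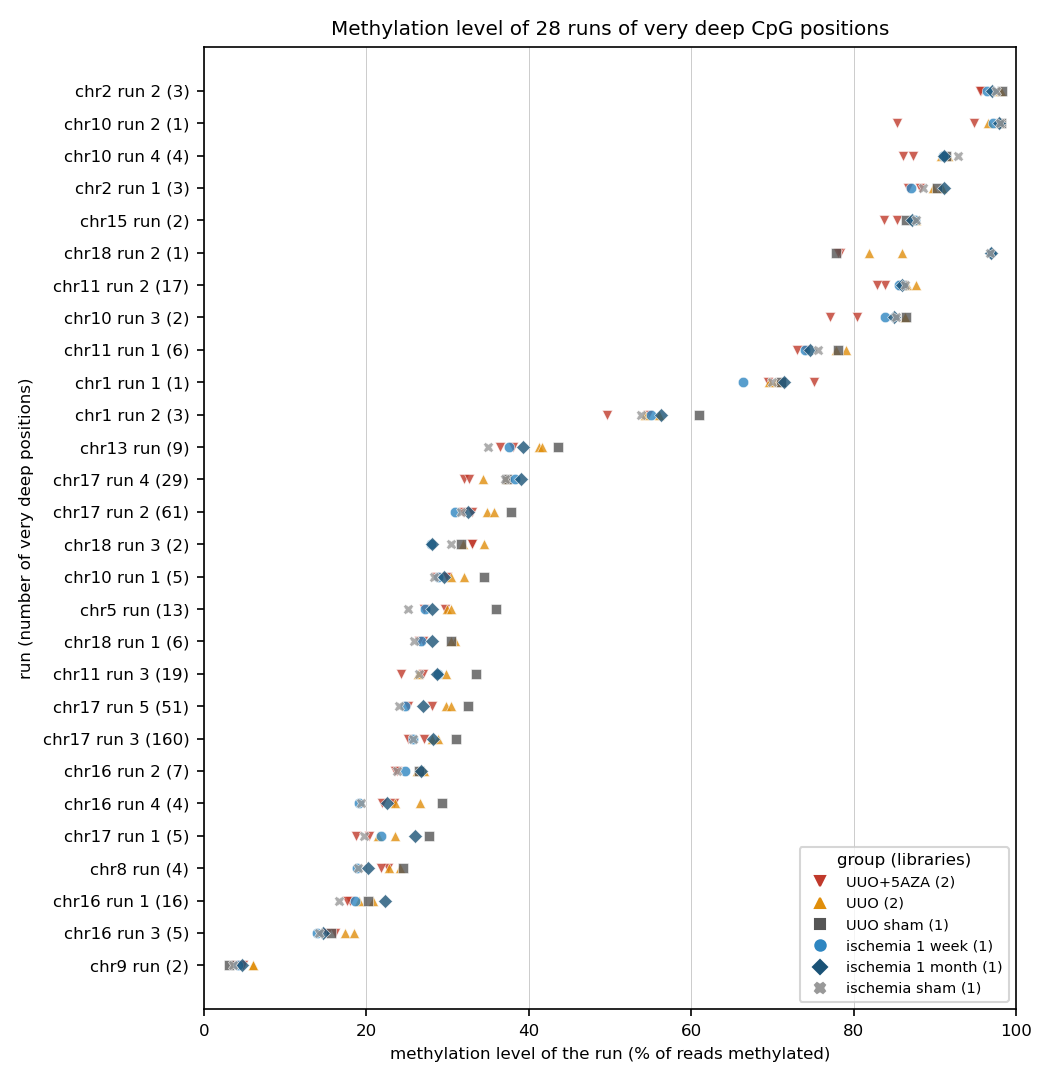
Methylation level (% of reads methylated) of each of the 28 runs in each of the 8 libraries, runs ordered by mean level, with the number of very deep positions in brackets. The runs separate into chr9 run under 10%, 16 runs between 10% and 50% and 11 runs above, and the UUO sham point lies right of the ischemia sham point in all 16 runs of the middle range.

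Set against the other positions, the very deep ones stood out by how many had an intermediate level. Levels of 10% to 50% were found at 66.4% to 71.7% of the very deep positions and at 5.26% to 6.14% of the others, a difference of 64.1 ± 1.8 points (SD, n = 8 libraries, exact two-sided sign-flip permutation p = 0.0078, the smallest that 8 libraries allow). The others were mostly at the extremes, with 43.9% to 45.3% of them under 10% and 49.3% to 50.3% at 50% or more. Away from fragment edges the contrast was wider, at 82.8% to 91.2% of very deep positions against 6.73% to 8.02% of the others (exact two-sided sign-flip permutation p = 0.0078, n = 8 libraries). Most of these positions share 1 block, so the shares describe the block first. The bounds of 10% and 50% are also those of the run classes, a split made after the values were seen, and the tests of these shares were not planned. A gap of the same sign in all 8 libraries can only give the smallest p. The same positions were measured in every library, so these p-values cover the agreement of libraries only. They cannot say whether other positions of such depth would differ in the same way.

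The mean level of the very deep positions was 11.1 ± 1.5 points below that of the other positions of the same library (SD, n = 8 libraries, exact two-sided sign-flip permutation p = 0.0078, lower in 8 of 8). The gap lay mostly in the 4-run block, whose mean level was 26.55% to 33.04% in the 8 libraries, against 43.7% to 46.1% at the other positions. The 140 very deep positions outside the block had 41.3% to 46.2%, a difference of -0.88 ± 1.15 points from the other positions (SD, exact two-sided sign-flip permutation p = 0.070, n = 8 libraries). Level also did not follow depth in one direction: it was 31.1% to 33.3% at the positions with 50 to 100 reads in their lowest library and 46.9% to 52.4% at those with 500 to 1000. Fragment edges were 48.5% of the very deep positions and 58.1% of the others. With edges left out the very deep positions were 0.31 ± 1.72 points above the others (exact two-sided sign-flip permutation p = 0.69, n = 8 libraries). The p-values of these level differences, too, cover only the agreement of libraries over the same positions.

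Replicate libraries lay close together at this depth. The median difference between the 2 libraries of a group at a very deep position was 1.68 points in UUO+5AZA and 1.29 points in UUO, against 2.78 and 2.44 points at the other positions. Counting error alone, as the median standard error of such a difference, was 0.83 points in UUO+5AZA and 0.70 points in UUO at very deep positions. Duplicate PCR reads are counted in these depths, so the true counting error may be larger. The mean chi-square of the replicate difference (1 expected from counting error) was 12.4 in UUO+5AZA and 9.31 in UUO at very deep positions, against 1.16 and 1.22 at the others.

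The first comparison asks what 5AZA did in obstructed kidneys. The mean level over the 441 positions was 32.70% and 31.22% in the UUO+5AZA libraries, against 34.42% and 35.57% in the UUO libraries. The 2 groups did not overlap, and the difference of means was -3.04 points (31.96 ± 1.04% in UUO+5AZA and 35.00 ± 0.81% in UUO, SD, n = 2 each). An exact two-sided permutation test gave p = 0.33, the smallest that 2 against 2 libraries allow. At the other positions the libraries had 44.23% and 43.79% in UUO+5AZA and 46.06% and 46.10% in UUO, again with no overlap. The group means there were 44.01% in UUO+5AZA and 46.08% in UUO, a difference of -2.07 points. The mean in UUO+5AZA was below that in UUO at 414 of the 441 very deep positions (93.9%) and above it at 27, and 282 of the 301 block positions were among the 414. Of the others, which have far fewer reads, 62.2% were below and 33.8% above, and the remaining ones were equal.

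By run, the level in UUO+5AZA lay below that in UUO at 27 of 28, and at 24 of 28 both UUO+5AZA libraries lay below both UUO libraries. Of all 125762 runs of positions with at least 10 reads, joined by the same rule, 46.8% did so, and 5.08% did so in the other direction, where no very deep run was found. The count moved with depth: with each run and library thinned to at most 500 reads, 18 of the 28 runs and 46.4% of all runs were lower without overlap, and 1 of the 28 and 4.98% of all runs higher. In a quasi-binomial model with limma's moderated dispersion and Benjamini-Hochberg adjustment over all 125762 runs, 0 of the 28 very deep runs and 0.0% of all runs passed an adjusted p of 0.05 with a difference of at least 10 points. No very deep run differed by 10 points there, so for them that count was fixed whatever the p. With no minimum difference there were 0 as well. With the positions held to at least 20 reads instead of 10, and no minimum difference, 1 run passed, which was chr2 run 2 (0.00101% of 98907 runs). At an unadjusted p under 0.05 there were 22 of 28 and 17.6% of all runs (9 of 28 and 17.3% with thinned reads), and limma on log2 ratios of methylated to unmethylated reads called 0, with 3 of 28 and 18.5% at an unadjusted p under 0.05. Missing the threshold with 2 libraries a group does not show that the levels did not differ.

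The 5AZA difference was present in each class of runs. Averaged over runs, the block's level was 30.06% and 28.71% in UUO+5AZA and 31.79% and 33.03% in UUO, a difference of -3.02 points, or -9.33% of the UUO level. The 12 other runs of intermediate level were at 25.42% and 24.86% in UUO+5AZA and 26.76% and 28.27% in UUO, a difference of -2.37 points, or -8.62%. The 11 runs of high level were at 81.63% and 78.87% in UUO+5AZA and 84.19% and 84.05% in UUO, a difference of -3.87 points, or -4.60%. In none of the 3 classes did the libraries of the groups overlap, which also held for the mean level of the other positions. The differences between classes were not tested.

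Inside the block the positions are described by classes made on these same levels, with no test between them. The 12 positions under 10% averaged 5.34% and 5.59% in UUO+5AZA and 7.57% and 7.14% in UUO, and all 12 were lower in UUO+5AZA. The 156 positions of 10% to 50% away from edges averaged 18.72% and 16.95% in UUO+5AZA and 20.61% and 21.89% in UUO, with 152 lower. The 51 edge positions of 50% or more averaged 76.34% and 76.55% in UUO+5AZA and 77.84% and 79.01% in UUO, with 39 lower.

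The largest 5AZA differences of single runs lay outside the block, and none passed the adjusted test over runs of positions with at least 10 reads. Every position of chr10 run 3, chr10 run 2, chr18 run 2 and chr2 run 2 was at a fragment edge. At chr10 run 3 (chr10:80640866-80640889, 2 positions) the level was 80.4% and 77.1% in UUO+5AZA, against 86.3% and 86.3% in UUO, a difference of -7.53 points (SE 0.96, quasi-binomial model, adjusted p = 0.23). At chr10 run 2 (chr10:21862580-21862581, 1 position) it was 94.8% and 85.3% in UUO+5AZA and 96.5% and 97.9% in UUO. The 2 UUO+5AZA libraries were themselves 9.47 points apart there, and the 2 UUO libraries 1.39 points. At chr18 run 2 (chr18:73693091-73693092, 1 position) the level was 78.4% and 78.0% in UUO+5AZA and 85.9% and 82.0% in UUO. At chr11 run 1 (chr11:3050603-3050797, 6 positions) the difference was -4.95 points, and at chr10 run 4 (chr10:80641466-80641510, 4 positions) it was -4.40 points. The lowest adjusted p in this model was 0.11, at chr2 run 2, where the difference was -2.38 points (SE 0.11) and both UUO+5AZA libraries lay below both UUO libraries. With at least 20 reads at every position the difference there was again -2.38 points and the adjusted p was 0.0031, while over all alternatives the quasi-binomial model and limma gave adjusted p-values of 0.0031 to 0.76. The 1 run with a higher mean in UUO+5AZA was chr1 run 1 (chr1:90174065-90174066, 1 position), with 75.2% and 69.4% against 70.5% and 69.6% in UUO, where the libraries overlapped.

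**Figure D4:**
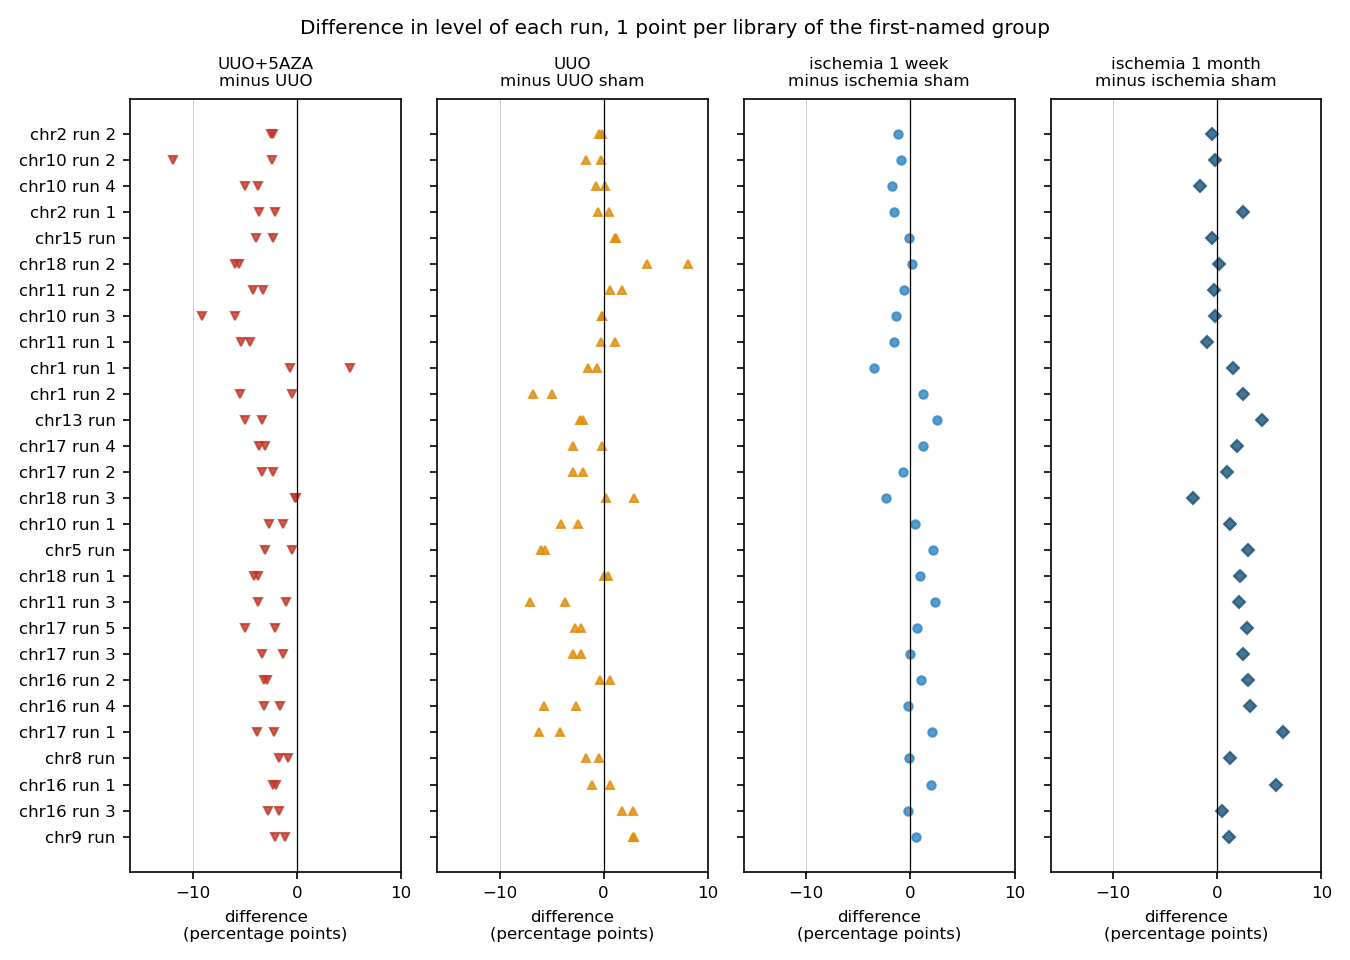
Difference in methylation level (percentage points) of each run, 1 point per library of the first-named group against the mean of the group it is set against, runs ordered by mean level from high (top) to low. In the UUO+5AZA panel 27 of 28 runs have a mean below 0, and in the ischemia 1 month panel 20 of 28 points lie above 0.

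Obstruction without 5AZA was compared with its sham. The mean level over the 441 positions was 34.42% and 35.57% in the UUO libraries, against 37.22% in the UUO sham library, a difference of -2.22 points. At the other positions the difference had the opposite sign, at 0.86 points (46.08% in UUO and 45.21% in UUO sham). An exact two-sided permutation test of the very deep positions gave p = 0.33, the smallest that 2 against 1 library allow. UUO was lower at 332 of 441 very deep positions (75.3%) and higher at 109. Of the others, which have far fewer reads, 39.4% were lower and 53.8% higher, and the remaining ones were equal. The sign rests on the 1 UUO sham library: with both shams taken as 1 group the difference was 0.43 points, since the ischemia sham library had 31.92%.

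The difference was present inside and outside the block. Averaged over its positions its level was 29.72% and 30.95% in UUO, against 33.04% in UUO sham, a difference of -2.70 points, while the 140 positions outside it differed by -1.19 points. Its 156 intermediate positions away from edges averaged 20.61% and 21.89% in UUO and 24.48% in UUO sham, and 142 of them were lower in UUO. Its 51 high edge positions averaged 77.84% and 79.01% in UUO and 78.21% in UUO sham, with 24 lower. The 11 runs of high level outside the block differed by 0.022 points on average (84.19% and 84.05% in UUO and 84.10% in UUO sham). That mean joins 4 runs higher and 7 lower in UUO, from -5.86 points at chr1 run 2 to 6.13 points at chr18 run 2.

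By run, both UUO libraries lay below the UUO sham library at 16 of 28 runs, against 27.0% of all runs, and above it at 7 of 28, against 40.4%. With reads thinned to 500 these counts were 13, against 26.9% of all runs, and 9, against 39.5%. With all reads no very deep run differed by 10 points, the largest difference being 6.13 points, so none could pass that minimum below. In the quasi-binomial model 0 of 28 very deep runs and 0.0% of all runs were called, with or without the minimum of 10 points. At an unadjusted p under 0.05 there were 13 of 28 and 5.16% of all runs. Thinned to 500 reads there were 3 of 28 and 4.94%, and limma on log2 ratios called 0, with 1 of 28 and 7.19% at an unadjusted p under 0.05. The count of very deep runs thus fell with thinning, which also leaves fewer reads to detect a difference. Why it was higher in the unthinned data was not tested.

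The 5 runs furthest below the UUO sham library included chr1 run 2 (chr1:124253772-124253806, 3 positions), with 54.3% and 56.0% in UUO and 61.0% in UUO sham, a difference of -5.86 points (SE 2.02, quasi-binomial model, adjusted p = 0.86). At chr5 run (chr5:147072588-147072871, 13 positions) the level was 29.9% and 30.4% in UUO and 36.0% in UUO sham, a difference of -5.83 points. At chr11 run 3 it was 26.4% and 29.8% in UUO and 33.4% in UUO sham, where the 2 UUO libraries were themselves 3.40 points apart. These levels pool the reads of the run. With its positions weighted equally, chr11 run 3 had 30.45% and 31.75% in UUO and 33.04% in UUO sham, a narrower gap. At chr17 run 1 (chr17:36368236-36368273, 5 positions), which is not part of the block, the pooled level was 21.5% and 23.5% in UUO and 27.7% in UUO sham. At chr16 run 4 (chr16:91534891-91534934, 4 positions) the difference was -4.20 points.

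The 5 runs furthest above it were led by the single CpG of chr18 run 2, with 85.9% and 82.0% in UUO and 77.8% in UUO sham, a difference of 6.13 points. At chr9 run, the nearly unmethylated one, the level was 6.03% and 5.97% in UUO and 3.11% in UUO sham. At chr16 run 3 (chr16:61056181-61056202, 5 positions) the level was 17.4% and 18.4% in UUO and 15.6% in UUO sham. Chr18 run 3 (chr18:85867389-85867420) and chr11 run 2 (chr11:3093351-3093631, 17 positions) were higher in UUO by 1.56 and 1.22 points. None of these passed the adjusted test.

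Against the UUO sham library the UUO+5AZA libraries lay further below than the UUO libraries did. The mean level was 32.70% and 31.22% in UUO+5AZA and 37.22% in UUO sham, a difference of -5.26 points, against -1.21 points at the other positions. The UUO+5AZA and UUO comparisons use the same sham or UUO libraries and are not independent of each other.

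The ischemia groups have 1 library each, so their differences have no replicate check. One week after ischemia the mean level over the 441 positions was 32.05%, against 31.92% in the ischemia sham library, a difference of 0.14 points, and -0.53 points at the other positions. Of the positions, 247 were higher after 1 week (56.0%) and 194 lower. Of the others, 35.5% were higher and 40.2% lower, and the remaining ones were equal. No very deep run differed by 10 points or more, against 4.12% of all runs, whose reads are far fewer. By run, 13 of 28 were higher and 15 lower, against 40.6% and 57.7% of all runs. The differences ran from -3.47 points at chr1 run 1 (66.4% after 1 week and 69.9% in ischemia sham) to 2.52 points at the chr13 run (chr13:44964978-44965024, 9 positions, 37.6% and 35.0%). The 11 runs of high level averaged 83.73% after 1 week and 84.76% in ischemia sham, a difference of -1.03 points, with 2 higher and 9 lower.

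One month after ischemia the mean level was 34.08%, against 31.92% in ischemia sham, a difference of 2.16 points, and 0.015 points at the other positions. It was higher at 351 of 441 positions (79.6%) and lower at 90. Of the others, which have far fewer reads, 39.3% were higher and 37.2% lower, and the remaining ones were equal. By run, the level was higher at 20 of 28, against 46.3% of all runs, and lower at 8, against 51.8%. No very deep run differed by 10 points or more, against 4.53% of all runs. The 156 intermediate block positions away from edges averaged 20.93% after 1 month and 17.94% in ischemia sham, and 141 of them were higher. The 51 high edge positions of the block averaged 73.93% after 1 month and 74.18% in ischemia sham. The 12 other runs of intermediate level differed by 2.54 points (26.20% after 1 month and 23.65% in ischemia sham), with 11 of 12 higher. The 11 runs of high level averaged 84.98% after 1 month and 84.76% in ischemia sham, a difference of 0.22 points, with 4 higher and 7 lower.

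The 3 runs furthest above ischemia sham after 1 month were chr17 run 1 (26.0% after 1 month and 19.7% in ischemia sham), chr16 run 1 (chr16:11144143-11144215, 16 positions, 22.3% and 16.7%) and the chr13 run (39.3% and 35.0%). The first of them differed by 6.33 points and chr16 run 1 by 5.68 points, and these were the 2 very deep runs past 5 points, against 19.7% of all runs. The 3 runs furthest below it were chr18 run 3 (28.1% and 30.4%), chr10 run 4 (91.2% and 92.8%) and chr11 run 1 (74.6% and 75.6%). In the quasi-binomial model, with each lone ischemia library assumed to vary like the UUO and UUO+5AZA pairs, 0 of 28 runs and 0.0% of all runs were called at either time. At an unadjusted p under 0.05 there were 5 of 28 after 1 week (2.89% of all runs) and 11 of 28 after 1 month (3.42%). With reads thinned to 500 there were 0 of 28 (2.9% of all runs) and 1 of 28 (3.38%), so these counts moved with depth, and each p sets 1 library against 1 library. At 1 week no very deep run was past 5 points, against 19.4% of all runs.

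The 2 sham libraries differed from each other as well. The mean level of the very deep positions was 37.22% in the UUO sham library and 31.92% in the ischemia sham library, a difference of 5.30 points, against 0.95 points at the other positions. The UUO sham library was higher at 23 of 28 runs, against 57.9% of all runs, and lower at 5, against 39.7%. Among the 23 were all 16 runs of intermediate level, by 0.23 to 10.9 points. What separates the 2 sham libraries besides the surgery is not given in the sources used here, and with 1 library each a difference between the operations and a difference between libraries cannot be told apart. The 5 libraries of the UUO set and the 3 of the ischemia set were apart, with no overlap, at 4 of 28 runs. The UUO set was higher at 3 of them (7.52% of all runs) and lower at 1 (1.55% of all runs). The level of the chr8 run (chr8:3754409-3754452, 4 positions) was 21.8% to 24.6% in the UUO set and 18.8% to 20.2% in the ischemia set. That of chr16 run 3 was 15.1% to 18.4% in the UUO set and 14.0% to 14.7% in the ischemia set, and that of chr18 run 3 was 31.6% to 34.5% and 28.0% to 30.4%. The CpG of chr18 run 2 went the other way, at 77.8% to 85.9% in the UUO set and 96.8% to 97.0% in the ischemia set, the widest gap of the 4. The 4 runs were named after their values were seen. Set against their own shams, both UUO libraries were lower and both ischemia libraries higher at 8 of 28 runs (7.23% of all runs), and the reverse was found at 3 of 28 (15.1%).

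**Figure D5:**
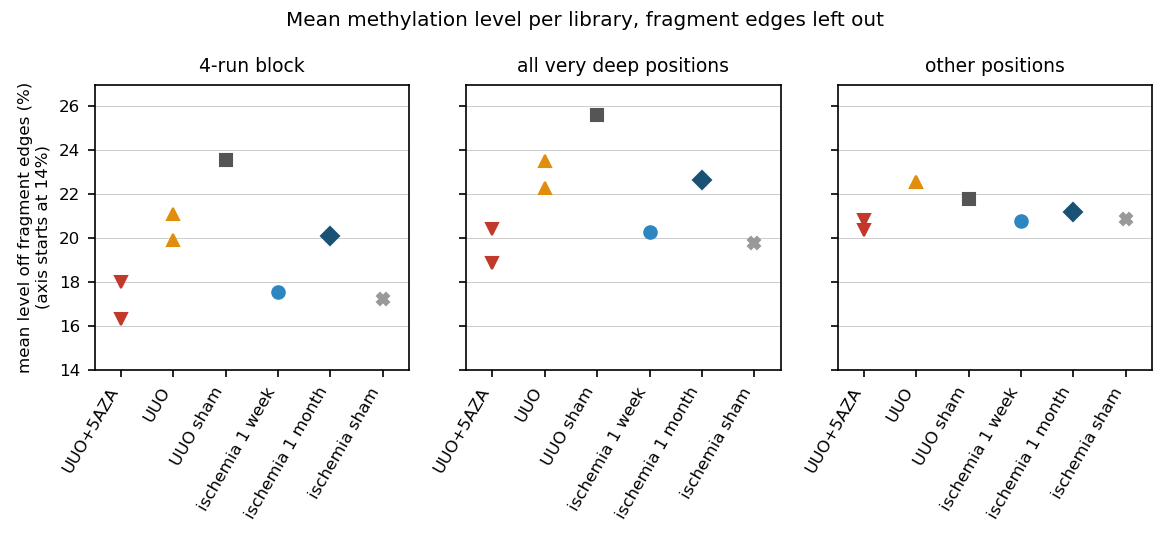
Mean methylation level (%) per library over positions not at a fragment edge, for the 4-run block, for all very deep positions and for the other positions; the axis starts at 14%. In the block the UUO+5AZA libraries lie at 18.0% and 16.3%, the UUO libraries at 19.9% and 21.1%, UUO sham at 23.6%, ischemia 1 week at 17.5%, ischemia 1 month at 20.1% and ischemia sham at 17.2%, while the other positions span 20.4% to 22.6%.

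Taking reads instead of positions as the unit moved all 4 comparisons. With reads pooled over all very deep positions the level was 34.1% and 37.3% in UUO+5AZA, 35.4% and 35.5% in UUO and 39.5% in UUO sham. It was 40.3% in ischemia 1 week, 33.8% in ischemia 1 month and 37.0% in ischemia sham. The differences were then 0.20 points for UUO+5AZA against UUO, -4.04 for UUO against UUO sham, 3.32 for ischemia 1 week and -3.20 for ischemia 1 month against ischemia sham. Without chr2 run 2, the highly methylated run whose depth differed 3.44-fold between libraries, they were -2.49, -2.62, 0.82 and 1.58 points, with the signs of the position means.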

How the data were processed

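Reduced representation bisulfite sequencing was deposited as 1 table per library, for 8 libraries in 6 groups. Per the submitters' processing notes, reads were aligned to mm9 with Bowtie, and how reads with several matches were handled is not stated there. The labels' protocols give MspI digestion, end repair with methylated dCTP and gel size selection. The deposited total and methylated read counts per CpG position were used. The fraction the authors deposited beside them equals methylated over total counts to 3 decimals and was not used further. Coordinates are 1-based, taking the deposited starts to count from 0, and positions have no strand.

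Positions with at least 10 reads in all 8 libraries on chromosomes 1 to 19 were kept, and joined into runs where under 250 bp apart, very deep positions apart from others. Fragment edges were read from depth steps over 10% between CpGs with at least 40 reads in total. Mean levels weight positions equally and were compared by exact permutation over libraries. Methylated and total counts per run entered a quasi-binomial model with 1 mean per group over all 8 libraries, dispersion moderated with limma 3.58.1 (R 4.3.3) with a trend on reads and not under 1 (2 residual and 3.81 prior degrees of freedom), an F test and Benjamini-Hochberg adjustment over 125762 runs. It was tested on simulated data. The limma fit on log2 ratios added 1 to both counts.

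The runs named in the text are the 8 with the most reads, the one with the most positions, the 5 largest differences each way in the UUO comparisons and the 3 largest each way in the ischemia comparisons. All others, such as chr18 run 1, the chr8 run, chr10 run 1 and the chr15 run, were named after their values were seen. The members, lists and tests were chosen with earlier results of these data known. The replicate numbers 1 and 2 in both UUO groups are given by the labels with no shared animal or day. Alternatives changed the weighting, depth limits, gap, edges, test, reads and libraries. No sequence of these regions is printed, as no mm9 genome was used here.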

Additional observations from a re-analysis of the deposited data

Results flagged for a closer look

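The UUO libraries and the ischemia libraries lay on opposite sides of their own shams at 11 runs and in the mean level, with every library of a set on its side. At 8 of 28 runs UUO was below and ischemia above (7.23% of all runs), and at 3 of 28 it was the other way round (15.1% of all runs). These differences between the sets were not tested, each rests on 1 sham library a set, and the shams themselves differed by 5.30 points in the mean level. For the mean level, UUO minus its sham was -2.22 points and ischemia minus its sham was 0.14 points at 1 week and 2.16 points at 1 month, so that the UUO difference minus the mean ischemia difference was -3.37 points. The same quantity was -9.41 points at chr17 run 1, -8.40 at chr5 run, -7.69 at chr1 run 2 and -7.63 at chr11 run 3. The value at chr11 run 3 depends on pooling reads. With its positions weighted equally, it had 30.45% and 31.75% in UUO and 33.04% in UUO sham. It then had 30.17% in ischemia 1 week, 30.81% in ischemia 1 month and 30.04% in ischemia sham. Its gaps to the shams were thus narrower, with the same signs. With reads pooled, the same quantity was -5.56 points at the chr13 run and -4.12 at chr10 run 1. In the 4-run block it was -4.22 points at chr17 run 5 and -3.13 at chr17 run 4. The sign was the other way at chr18 run 3 (3.90 points), chr11 run 2 (1.69 points) and the chr15 run (1.44 points).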

How the results depend on the processing

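Of the alternatives, 0 of 28 very deep runs were called in either UUO comparison under every test, gap, depth limit, thinning and left-out library tried, with the minimum of 10 points. Without that minimum, chr2 run 2 passed in UUO+5AZA minus UUO with at least 20 reads (adjusted p = 0.0031, -2.38 points; 0.0031 to 0.76 over its alternatives). In the fit with the replicate number as a block 0 were called as well, with 21 of 28 at an unadjusted p under 0.05, and the replicate numbers are not known to pair the libraries (correlation of deviations 0.044 over all runs and 0.11 over the very deep runs). With all reads and libraries no very deep run of the main fit could pass the minimum of 10 points, whatever its p. The largest differences there were -7.53 points in UUO+5AZA minus UUO and 6.13 points in UUO minus UUO sham. Leaving out 1 library moved the mean difference between -3.77 and -2.30 points for UUO+5AZA against UUO and between -2.80 and -1.65 for UUO against UUO sham.

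With reads pooled over positions the mean differences were 0.20 points for UUO+5AZA against UUO, -4.04 for UUO against UUO sham, 3.32 for ischemia 1 week and -3.20 for ischemia 1 month, and without chr2 run 2, an alternative chosen after seeing the data, all 4 had the signs of the position means. UUO against UUO sham was -1.04 points with runs weighted equally and 0.43 with both shams as 1 group. Ischemia 1 week was -0.035 points in the 4-run block alone, also chosen after seeing the data. Ischemia 1 month had 2 runs past 5 points. The difference from the other positions was 0.31 points without fragment edges and -0.88 outside the 4-run block (chosen after seeing the data).

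Single runs changed sign as follows. With both shams as 1 group, UUO minus sham was 0.10 points at chr2 run 2, 1.52 at chr16 run 1, 0.77 at chr16 run 4, 0.61 at chr17 run 2, 0.094 at chr17 run 3, 1.80 at chr17 run 5 and -3.36 at chr18 run 2. It was 0.067 at chr2 run 2 with runs joined under 100 bp and 0.70 at chr17 run 2 with thinned reads. Leaving out 1 library at a time gave -0.65 (without UUO+5AZA replicate 1) to 5.11 points at chr1 run 1 in UUO+5AZA minus UUO, -1.09 to 0.58 (without UUO replicate 1) at chr16 run 1 and -0.36 (without UUO replicate 2) to 0.60 at chr16 run 2 in UUO minus sham. Ischemia 1 month at chr11 run 1 was 4.20 points with thinned reads. The causes were not tested. A single sham library a set limits every sham comparison.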

Other observations

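Outside chromosomes 1 to 19, 2 positions of chromosome X and 8 of the mitochondrial chromosome also had at least 500 reads in all 8 libraries. The mean level of the 2 positions of chromosome X, with 73430 to 246934 reads each, was 46.7% and 41.4% in UUO+5AZA, 56.9% and 50.2% in UUO, 47.1% in UUO sham, 44.8% in ischemia 1 week, 50.4% in ischemia 1 month and 48.0% in ischemia sham. The mean level of the 8 mitochondrial positions, with 1161 to 20287 reads each, was 36.5% and 37.1% in UUO+5AZA, 38.7% and 38.3% in UUO, 37.1% in UUO sham, 33.1% in ischemia 1 week, 33.7% in ischemia 1 month and 34.3% in ischemia sham. Fragment edges were not separated there, and the part of the methylated dCTP at filled ends in these levels was not tested.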
